A study of Rattus norvegicus with 90 samples.

Results

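The 150 transcripts described here were measured in cultured rat hepatocytes, renal cells and cardiomyocytes, and stood lower after 9 h of high-dose thioacetamide-S-oxide in hepatocytes while staying near the vehicle level in the other 2 cell types. They were taken from 40071 transcripts by a rule on 9 h values. A transcript needed a mean of at least 2 CPM (estimated counts scaled to a total of 1000000 on transcripts in each library) in each cell type over the 10 vehicle and high-dose 9 h libraries, which 11421 transcripts had. It also needed a log2 ratio L of mean CPM + 1, high dose to vehicle, between -0.3 and 0.3 in renal cells and in cardiomyocytes, which left 6082. Of these, 646 had an L below -0.5 in hepatocytes, and the lowest 150 of them were kept. The members were thus chosen by values of the vehicle and high-dose 9 h libraries of all 3 cell types, and comparisons that use those libraries are given below as a description, without a test.

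Thioacetamide is a liver toxicant that monooxygenases of the liver convert to its S-oxide and then to a further oxidised, reactive species that binds to proteins and lipids. Hepatocytes carry most of this oxidising capacity, and exposing cells to the S-oxide gives them the first metabolite directly. A lower level of a transcript can follow from less transcription or from faster decay, and RNA abundance does not separate these. Abundance here is per transcript, so an isoform can fall while another of the same gene rises.

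RNA was sequenced from 90 libraries of poly-A-enriched RNA, 5 in each of 18 groups, from rat primary hepatocytes, renal tube epithelial cells and cardiomyocytes. The cells received vehicle (culture medium) or thioacetamide-S-oxide for 9 or 24 h, at 0.025 mM (low) or 0.125 mM (high) in hepatocytes, 0.125 or 0.5 mM in renal cells and 0.5 or 1.5 mM in cardiomyocytes. The hepatocytes and proximal tubular cells were bought cryopreserved from Sprague-Dawley rats, and no genetic change or other treatment is given for any group. Doses differ between the cell types, so low and high refer to each cell type's own pair, and 0.125 mM is the high dose of hepatocytes and the low dose of renal cells.

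The library furthest from the rest was MS-183. In this hepatocyte 24 h vehicle library only 8.33% of 2993135 estimated counts fell on transcripts, while the remaining 89 libraries had 84.1 to 95.3%. In it 60 of the 150 members were at 0. It was left out, and the values that it changes most are also given with it kept in. The other libraries held 10519414 to 55822031 counts on transcripts, with a median of 26073383. The remaining 24 h vehicle libraries of hepatocytes carry numbers (MS-181, MS-182, MS-184, MS-185) outside the run MS-91 to MS-120 of the other hepatocyte libraries, so for these 4 the vehicle condition and any difference that goes with the numbering cannot be told apart. The libraries MS-145 (renal low, 24 h), MS-158 (cardiomyocyte low, 9 h) and MS-172 (cardiomyocyte low, 24 h) had member levels well below those of their groups, as given below. They also had fewer transcripts detected, at 19689, 19579 and 17277, as did MS-178 (cardiomyocyte high, 24 h) at 18015, against 20861 to 24742 in all other libraries used, and counts of DEGs among the members at 24 h that rest on MS-145, MS-172 or MS-178 are given without them below. The labels do not say whether the 5 libraries of a group came from separate donors, so p-values measure the spread between these cultures, which may be technical. In bulk RNA, fewer cells of a type and less RNA per cell cannot be told apart. The cell type labels could not be checked against marker genes, because the files do not pair transcripts with genes and 0 transcripts matched the gene table used here. For the same reason no sequences are shown, only a pair of members that fell and a pair that rose are named by identifier, and the others are described by rank.

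Per length, as deposited TPM (abundance scaled by transcript length and library total), their median in the 9 h vehicle libraries was 9.28 in hepatocytes, 9.26 in renal cells and 8.10 in cardiomyocytes, against 15.8, 18.4 and 16.5 TPM over the 11271 other broadly expressed transcripts. The mean TPM of single members ran from 0.351 to 251.6 in hepatocytes, from 0.405 to 1877 in renal cells and from 0.335 to 3724 in cardiomyocytes. The TPM was highest in hepatocytes for 60 members, in cardiomyocytes for 47 and in renal cells for 43, so no single cell type held most of them at its highest level. Their length had a median of 2604 bases and a range of 588 to 12912, against a median of 2247 bases for the other broadly expressed transcripts. Counts were whole numbers in all libraries for 49 members (32.7%), compared with 39.4% of the other broadly expressed transcripts. For the remaining members the reads were shared with other transcripts and divided by estimation. In particular, a pair of members had identical counts in every library and cannot be told apart, and 1 further member had the same counts as a transcript just outside the cut.

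L in hepatocytes ran from -2.29 to -0.81. The last 3 members had L of -0.814, -0.813 and -0.812, and the first 3 transcripts left out had -0.812, -0.811 and -0.810, so the edge of the set is a cut through a continuous range. The first transcript left out and the last member had identical counts, and their order was set by identifier alone.

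At 9 h, in hepatocytes, the median member level was 16.5 to 17.9 CPM in the 5 vehicle libraries and 7.57 to 8.27 CPM in the 5 high-dose libraries, with no overlap. The low-dose libraries, which the rule did not use, lay between them at 11.6 to 12.7 CPM. By group means, all of the 150 members but 1 had the low dose between the vehicle and the high dose. For 66.7% of the members all 5 low-dose libraries were below all 5 vehicle libraries, beside 10% of the other broadly expressed transcripts, and for 89.3% all 5 high-dose libraries were below all 5 low-dose libraries, beside 22.2%. The vehicle and high-dose libraries chose the members, so these values are a description, and no test at 9 h is reported.

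**Figure D1:**
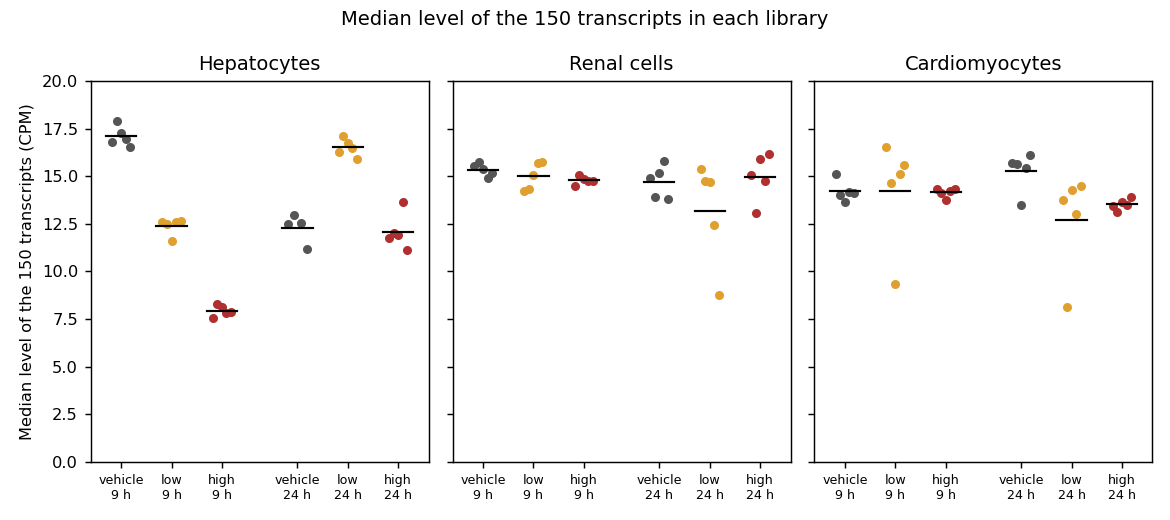
Median level of the 150 transcripts in each library (vertical axis, CPM), by cell type, dose and time (horizontal axis). Points are libraries and bars are group means; the left-out vehicle library is not drawn. Hepatocyte libraries at 24 h lie at 11.2 to 13.0 CPM with vehicle, 15.9 to 17.1 CPM with the low dose and 11.1 to 13.6 CPM with the high dose, whereas libraries of renal cells and cardiomyocytes lie between 12.4 and 16.5 CPM apart from 3 low-dose libraries at 8.11 to 9.32 CPM.

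In renal cells at 9 h the median member level was 14.9 to 15.8 CPM with vehicle, 14.2 to 15.7 CPM with the low dose and 14.5 to 15.1 CPM with the high dose. In cardiomyocytes it was 13.6 to 15.1 CPM with vehicle, 13.7 to 14.3 CPM with the high dose and 9.32 to 16.5 CPM with the low dose, where 4 of the 5 libraries were at or above 14.6 CPM and MS-158 alone was low.

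The comparison of the high with the low dose at 24 h in hepatocytes used neither the libraries that chose the members nor the 24 h vehicle libraries. The question was whether the members still stood lower at the higher dose a day after exposure began. They did: the median member level was 15.9 to 17.1 CPM in the 5 low-dose libraries and 11.1 to 13.6 CPM in the 5 high-dose libraries, and these ranges do not overlap. The median log2 fold change was -0.47 over the members, with an interquartile range of -0.69 to -0.27, and -0.00 over the 16891 transcripts tested. It was positive for 7 members and negative for the rest. Here and below, a DEG (differentially expressed transcript) passed edgeR's quasi-likelihood test at a Benjamini-Hochberg adjusted p of at most 0.05, taken over all transcripts tested, and changed by 0.41 or more on the natural-log scale (0.59 on the log2 scale). By this test, 53 members (35.3%) were DEGs with a decrease, where 8.34% of all transcripts tested were, and 0 were DEGs with an increase, where 6.58% of all were. DESeq2 and limma also gave 0 members with an increase, and 1 was higher at an unadjusted p under 0.05 in edgeR, beside 23.9% of all. Of the other 5931 transcripts tested that were broadly expressed and flat in renal cells and cardiomyocytes at 9 h, 2.85% were DEGs with a decrease and their median log2 fold change was 0.02. Among the 56 members whose counts were whole in every library of this comparison, 15 were DEGs with a decrease, where 9.11% of all such transcripts were. Without the fold-change threshold 70% of the members passed with a decrease and 1 member with an increase, beside 21% and 19.5% of all transcripts tested. For 97 members all 5 high-dose libraries lay below all 5 low-dose libraries, which held for 17.8% of all transcripts tested, and for 0 members did they all lie above, beside 12.8% of all.

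**Figure D2:**
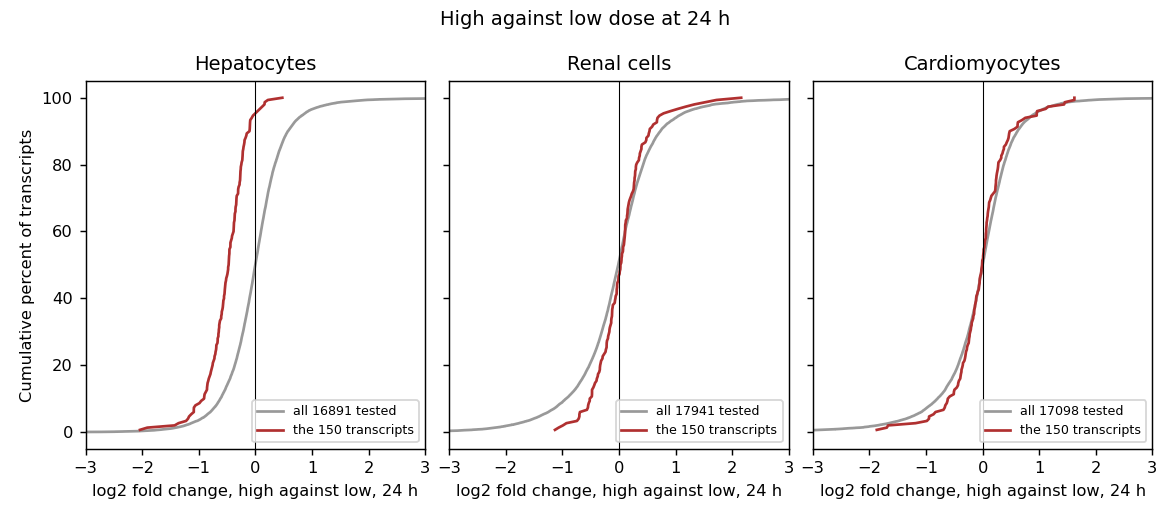
Cumulative percent of transcripts (vertical axis) with a log2 fold change, high against low dose at 24 h, at or below the value on the horizontal axis, for the 150 transcripts and for all transcripts tested in each cell type. The hepatocyte curve of the 150 lies to the left of the curve of all transcripts (medians -0.47 and -0.00), and in renal cells (0.03 and -0.01) and cardiomyocytes (-0.01 and 0.00) the curves cross near 0.

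The fall was largest for ENSRNOT00000024430. Its level in hepatocytes at 24 h was 107.6, 119.3, 123.1, 68.7 and 97.99 CPM in the 5 low-dose libraries and 25.6, 28.5, 21.3, 27.8 and 20.6 CPM in the 5 high-dose libraries, so every high-dose library was below every low-dose one. The log2 fold change was -2.04 (SE 0.15), with an adjusted p of 4.85e-06 in edgeR's quasi-likelihood test, Benjamini-Hochberg adjusted. The vehicle libraries at 24 h were lower still, at 10.7, 9.56, 7.86 and 9.05 CPM, and MS-183, left out, held 493 CPM. At 9 h the order was the reverse for vehicle, with means of 54.2 ± 9.99 CPM (SD, n = 5) with vehicle, 37.2 ± 2.99 CPM with the low dose and 24.7 ± 4.20 CPM with the high dose. This transcript was far more abundant in the other cell types, at a mean of 1809 ± 44.8 CPM in renal and 4335 ± 204 CPM in cardiomyocyte vehicle libraries at 24 h (SD, n = 5).

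ENSRNOT00000032316, with the next largest fall, had the opposite distribution among cell types. Its level in hepatocytes at 24 h was 155.4, 157.1, 141.9, 124.97 and 155.8 CPM with the low dose and 29.1, 43.4, 37.4, 45.8 and 36.6 CPM with the high dose. The groups did not overlap, and the log2 fold change was -1.91 (SE 0.12, adjusted p of 1.55e-06, edgeR's quasi-likelihood test, Benjamini-Hochberg adjusted). Vehicle stood at 12.4, 11.0, 12.3 and 9.50 CPM at 24 h (0 CPM in MS-183), below both doses, after 38.1 ± 7.07 CPM (SD, n = 5) at 9 h. In renal cells the 24 h means were 3.48 ± 0.83 CPM with vehicle and 4.13 ± 1.10 CPM with the high dose, and in cardiomyocytes 4.02 ± 0.60 and 3.44 ± 1.33 CPM (SD, n = 5), and neither difference passed the test.

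The member with the lowest L of the set had the third largest fall. Its hepatocyte level at 9 h was 22.3 ± 3.05 CPM with vehicle, 10.5 ± 2.97 CPM with the low dose and 3.78 ± 0.85 CPM with the high dose (SD, n = 5). At 24 h it was 17.2, 25.8, 24.7, 21.5 and 19.2 CPM in the low-dose libraries and 6.56, 11.5, 7.77, 7.62 and 6.24 CPM in the high-dose libraries. These groups did not overlap, with a log2 fold change of -1.43 (SE 0.17), while the 4 vehicle libraries, at 9.92, 13.0, 5.93 and 9.11 CPM, overlapped the high-dose range. MS-183, left out, held 0 CPM of it.

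The member with the fifth largest fall had a steady low-dose level, at 126.7, 128.3, 131.04, 118.7 and 125.97 CPM, against 48.0, 57.6, 53.1, 58.9 and 47.5 CPM with the high dose (log2 fold change -1.22, SE 0.06). Its vehicle libraries had gone from a mean of 133.02 ± 12.9 CPM at 9 h (SD, n = 5) to 16.9, 19.9, 11.8 and 16.0 CPM at 24 h (12.03 CPM in MS-183). For the 8 members with the largest falls between groups that did not overlap, the log2 fold change lay between -2.04 and -1.13, and the levels in the 24 h vehicle libraries differed in their place: below the high dose for some and above it for others.

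**Figure D3:**
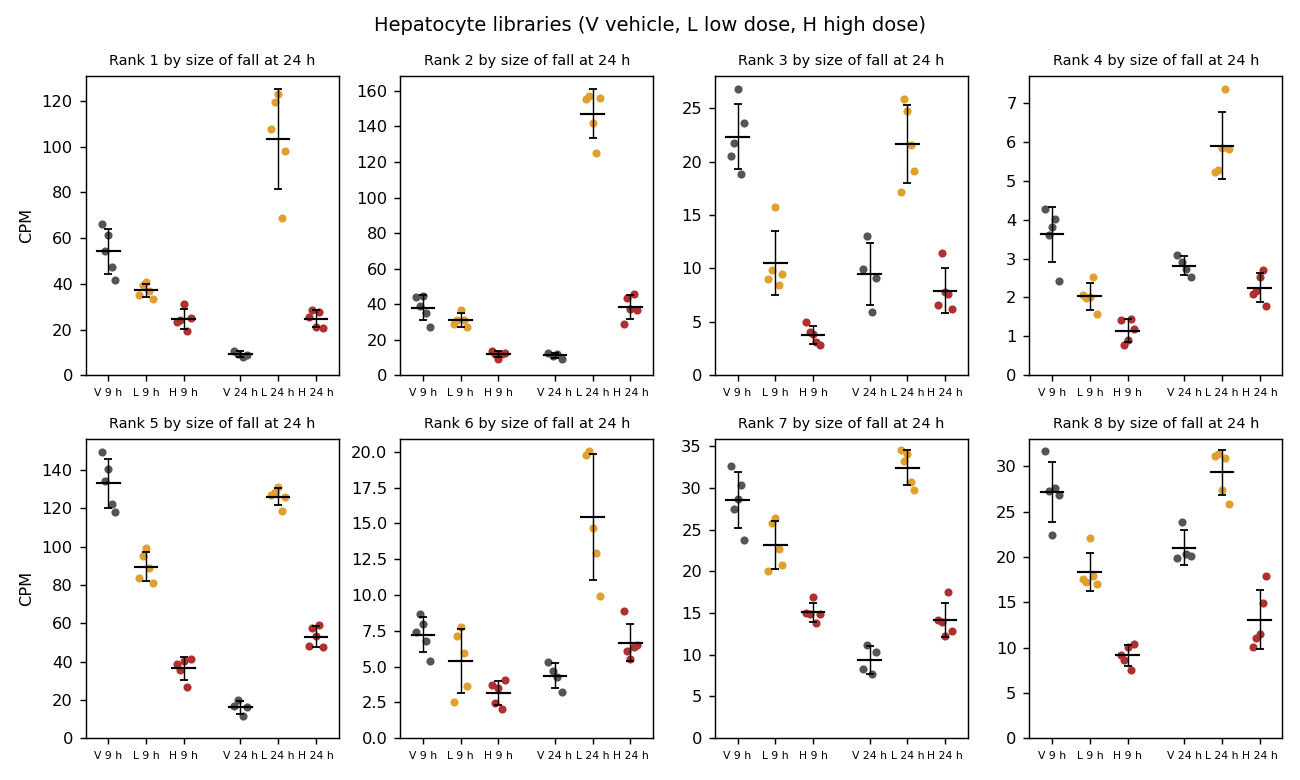
Level (vertical axis, CPM, from 0) of the 8 members with the largest fall at 24 h, high against low dose, in the 6 hepatocyte groups (horizontal axis). Points are libraries and bars are means with the SD over 5 libraries (4 for vehicle at 24 h). Rank 1 goes from a mean of 103.3 CPM with the low dose to 24.7 CPM with the high dose at 24 h, and rank 2 from 147.05 to 38.4 CPM.

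Per length, the median level of the 53 DEGs with a decrease was 10.3 TPM in the 9 h vehicle libraries of hepatocytes, against 8.71 TPM for the other 97 members. At 24 h it was 10.1 TPM with the low dose and 5.38 TPM with the high dose, against 7.77 and 6.12 TPM. With vehicle at 24 h it was 4.29 TPM, against 6.44 TPM, and with MS-183 kept in 3.74 against 5.33 TPM. The median L at 9 h was -1.01 for the 53 and -0.92 for the others.

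Against vehicle at 24 h the members did not move one way. With the high dose, 28 members (18.7%) were DEGs with a decrease and 22 (14.7%) with an increase, beside 11.6% and 15.1% of all 16749 transcripts tested, and the median log2 fold change was -0.10. With the low dose, 9 were DEGs with a decrease and 50 (33.3%) with an increase, beside 16.9% and 20.1% of all 16962 transcripts tested, and the median was 0.38. Both comparisons rest on the same 4 vehicle libraries, whose numbering sets them apart. With MS-183 kept in, the counts were 9 and 9 for the high dose, beside 3.72% and 6.65% of all transcripts tested, and 2 and 33 for the low dose, beside 7.89% and 11.6%. By means, the low dose was the highest of the 3 groups at 24 h for 74.7% of the members, the high dose the lowest for 54% and vehicle the lowest for 42.7%. With MS-183 kept in, these shares were 67.3%, 50% and 46.7%. No share over other transcripts is given beside these orderings, so they describe the members only.

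Among the members above vehicle at the high dose, ENSRNOT00000023664 had the largest rise, while at the low dose that of ENSRNOT00000032316 was larger (log2 fold change 3.64). It stood at 10.6, 9.88, 10.5 and 8.96 CPM in the 24 h vehicle libraries, at 109.1, 107.996, 125.2, 142.4 and 123.7 CPM with the low dose and at 101.3, 111.6, 102.99, 115.3 and 80.1 CPM with the high dose. The log2 fold change was 3.32 (SE 0.10, adjusted p of 8.36e-09, edgeR's quasi-likelihood test, Benjamini-Hochberg adjusted) for the high dose and 3.54 (SE 0.09) for the low dose. The 2 doses overlapped and differed by a log2 fold change of -0.23 (adjusted p of 0.066, edgeR's quasi-likelihood test, Benjamini-Hochberg adjusted). In MS-183, left out, it held 32.1 CPM.

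Among those below vehicle, the largest fall at the high dose with groups that did not overlap was from 18.1, 15.3, 21.4 and 14.8 CPM with vehicle to 4.03, 5.71, 4.63, 6.25 and 3.01 CPM (log2 fold change -1.91, SE 0.19). MS-183 held 20.1 CPM of it, and with that library kept in the change was -1.92. The low-dose libraries of this member lay between, at 7.91, 8.60, 7.46, 9.17 and 8.54 CPM, so its levels were ordered by dose at 24 h as they were at 9 h (means of 16.2, 12.0 and 7.31 CPM). The member most abundant per length in hepatocytes fell in a similar order, from a mean of 663 ± 59.3 CPM with vehicle (n = 4) to 470 ± 26.5 CPM with the low and 313 ± 58.7 CPM with the high dose (SD, n = 5). The log2 fold change for the high dose was -1.12 (SE 0.11), and MS-183 held 0 CPM of it. With MS-183 kept in, that change was -0.80 and was no longer a DEG.

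The members' vehicle level itself differed between times in hepatocytes. The log2 ratio of mean CPM + 1 at 24 h to that at 9 h had a median of -0.43 over the members in vehicle, against 0.01 over the other broadly expressed transcripts, and was positive for 33 members. A difference of 2-fold or more was seen for 35 members (23.3%), against 10.2% of the others. With MS-183 kept in, the median was -0.47 (others -0.06), 38 members were positive and 34 differed 2-fold or more, against 15.9% of the others. The same ratio had a median of 0.33 with the low dose (others 0.02), negative for 28 members, and of 0.48 with the high dose (others 0.09), negative for 15. The vehicle and high-dose 9 h libraries had chosen the members as high and low, so their ratios are given with no test. Despite the rise, the mean with the high dose at 24 h was below that of vehicle at 9 h for all members but 14, and the mean with the low dose at 24 h was above it for 62. High dose at 9 h was the lowest of the 6 hepatocyte groups for 72.7% of the members, and vehicle at 24 h for 20.7%, or 77.3% and 14.7% with MS-183 kept in. For these orderings of group means, too, no share over other transcripts is given, and they describe the members only.

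**Figure D4:**
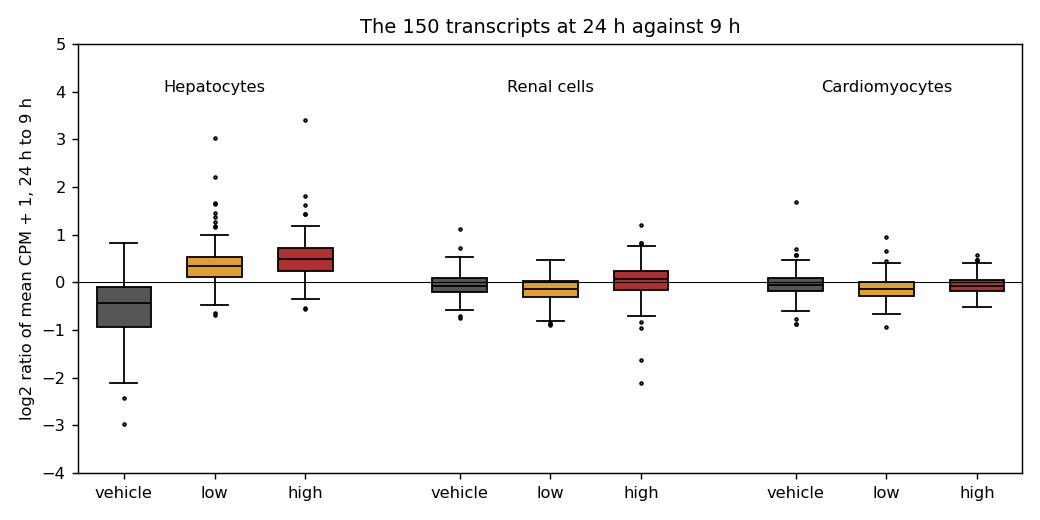
Log2 ratio of mean CPM + 1 at 24 h to that at 9 h (vertical axis) for the 150 transcripts, by cell type and dose (horizontal axis). Boxes span the quartiles over transcripts with the median as a line, whiskers reach 1.5 times the box and points lie beyond. Hepatocyte medians are -0.43 with vehicle, 0.33 with the low dose and 0.48 with the high dose, and the 6 medians in renal cells and cardiomyocytes lie between -0.15 and 0.06.

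In renal cells and cardiomyocytes the share of members that changed at 24 h was at or below that of all transcripts in 7 of the 8 counts of high-dose comparisons, the exception being decreases in cardiomyocytes, high against low (5.33% beside 3.53%). This tally depends on single libraries: without MS-172 both cardiomyocyte counts of high against low were above all transcripts, at 6.67% beside 4.7% for decreases and 4% beside 3.71% for increases. Without MS-180 decreases fell to 2.67% beside 2.11%. Without MS-178, 7 members were lower and 2 higher, beside 2.76% and 1.68%, and high dose against vehicle gave 9 and 6, beside 7.54% and 6.42%. In renal cells, high dose against vehicle, 12 members (8%) were DEGs with a decrease and 11 (7.33%) with an increase, beside 14.9% and 12% of all. High against low gave 9 and 10, beside 11.3% and 8.38%, and 9 and 12 without MS-145, beside 12.6% and 10.6%. In cardiomyocytes, high dose against vehicle gave 6 and 7, beside 6.39% and 6.01%, and high against low gave 8 and 2, beside 3.53% and 2.11%. The 2 are the pair of members with identical counts, a single measurement counted for both, and the pair is also among the 7. The low dose against vehicle gave 0 DEGs among the members in both cell types at 24 h, beside 0.017% and 0.0452% of all transcripts in renal cells and 0% in both directions in cardiomyocytes, so almost no transcript of any kind passed and the 0 says nothing particular about the members. The counts were also 0 with DESeq2, with limma and without MS-145 in renal cells (beside 0.0892% and 0.206%) or MS-172 in cardiomyocytes (beside 0.0116% and 0.029%). At an unadjusted p under 0.05 in edgeR's test, 5 members were lower and 1 higher in renal cells, beside 3.29% and 3.05% of all, and 4 lower and 10 higher in cardiomyocytes, beside 4.31% and 7.62%. These unadjusted counts depend on single libraries. Without MS-145, 12 were lower and 3 higher in renal cells, beside 6.16% and 4.88%. Without MS-172, 12 were lower and 12 higher in cardiomyocytes, beside 7.76% and 8.79%. The median log2 fold change of the members lay between -0.04 and 0.03 in these 6 comparisons.

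Some members did change in these cells. In renal cells, the largest rise was that of ENSRNOT00000079711, at 1.52, 2.13, 1.65, 2.11 and 2.57 CPM with vehicle and 5.55, 7.33, 7.82, 7.32 and 7.93 CPM with the high dose at 24 h, without overlap (log2 fold change 1.79, SE 0.18, adjusted p of 1.05e-05, edgeR's quasi-likelihood test, Benjamini-Hochberg adjusted). The low dose stood at 2.07, 0.98, 1.98, 1.48 and 0.68 CPM, the last being MS-145. In hepatocytes the same transcript stood at a mean of 16.3 ± 3.15 CPM with vehicle (n = 4), 32.4 ± 2.46 CPM with the low and 21.6 ± 7.73 CPM with the high dose at 24 h (SD, n = 5).

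The largest renal fall was from a mean of 72.4 ± 12.8 CPM with vehicle to 27.2 ± 4.13 CPM with the high dose (SD, n = 5, log2 fold change -1.47, SE 0.12), in a member that rose in hepatocytes from 2.54 ± 0.21 CPM (n = 4) to 15.7 ± 2.49 CPM (n = 5). With MS-183 kept in, the log2 fold change of this member in hepatocytes was 1.94 in place of 2.59 and no longer passed in edgeR's quasi-likelihood test (adjusted p of 0.105). ENSRNOT00000023664 went the same way, from 1175, 1096, 1201, 1199 and 987 CPM with vehicle to 520, 456, 531, 495 and 527 CPM with the high dose in renal cells (log2 fold change -1.22, SE 0.05). In cardiomyocytes its level was 473 ± 38.5 CPM with vehicle and 467 ± 15.2 CPM with the high dose (SD, n = 5).

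In cardiomyocytes the largest fall belonged to the member with the second lowest L in hepatocytes, from 82.2, 80.7, 80.2, 86.2 and 90.7 CPM with vehicle to 22.6, 23.9, 22.5, 24.5 and 26.4 CPM with the high dose at 24 h. The log2 fold change was -1.82 (SE 0.06), and a fall against the low dose was called in cardiomyocytes as well (-1.67). In hepatocytes this transcript, which had the fifth largest fall against the low dose there, stood above vehicle at 24 h, with a log2 fold change of 1.69 for the high and 2.91 for the low dose. The largest rise in cardiomyocytes, high dose against vehicle, was shared by the pair of members with identical counts, from 1.46 ± 0.39 to 6.24 ± 1.12 CPM (SD, n = 5, log2 fold change 2.08, SE 0.22).

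Of the 53 members that fell in hepatocytes with the high against the low dose at 24 h, 43 (81.1%) were DEGs in neither renal cells nor cardiomyocytes in the same contrast, beside 62.1% of the 1003 transcripts that fell in hepatocytes and were tested in all 3 cell types. In renal cells 2 of the 53 (3.77%) also fell and 4 (7.55%) rose, beside 23.3% and 9.57% of the 1003. In cardiomyocytes 5 (9.43%) fell and 0 rose, beside 7.38% and 4.09%. Without MS-145, 41 were DEGs in neither (beside 59.4%), and 3 fell and 5 rose in renal cells (5.66% and 9.43%, beside 24.9% and 10.6%). Without MS-172, 41 were DEGs in neither (beside 60%), and 5 fell and 2 rose in cardiomyocytes (9.43% and 3.77%, beside 8.75% and 6%). Without MS-178 it was 44 (beside 63.2%), with 4 and 0 in cardiomyocytes (7.55% and 0%, beside 5.73% and 3.36%). The members were chosen for small changes at 9 h in both of these cell types, so these shares are a description. Since a DEG in one cell type and not in another does not show a difference, the difference was tested as an interaction of cell type and dose. Against renal cells, 51 members (34%) had a lower high-to-low ratio in hepatocytes and 3 (2%) a higher one, beside 9.05% and 10.6% of all 19609 transcripts tested, in edgeR's quasi-likelihood test, Benjamini-Hochberg adjusted. The median of the difference was -0.51 on the log2 scale over the members and 0.05 over all. Against cardiomyocytes, 33 members (22%) had a lower ratio in hepatocytes and 0 a higher one, beside 7.09% and 7.3% of all 19358, and the median was -0.46 over the members and -0.02 over all. The 33 include the pair with identical counts. DESeq2 and the fit without a fold-change threshold each gave 1 member with a higher ratio against cardiomyocytes, and limma gave 0, while 5 were higher at an unadjusted p under 0.05 in edgeR, beside 16.6% of all.

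These tests rest in part on low-dose libraries with low member levels. The median member level in MS-145 was 8.77 CPM, against 12.4 to 15.4 CPM in the other 4 renal low-dose libraries at 24 h, and in MS-172 it was 8.11 CPM, against 13.0 to 14.5 CPM in the other cardiomyocyte ones. Without MS-145, 52 members had a lower and 3 a higher ratio in hepatocytes than in renal cells, beside 10% and 13% of all transcripts tested. Without MS-172, 45 had a lower and 0 a higher ratio than in cardiomyocytes, beside 8.36% and 7.72%. Without MS-178, 36 had a lower and 0 a higher ratio than in cardiomyocytes, beside 6.94% and 6.97%.

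**Figure D5:**
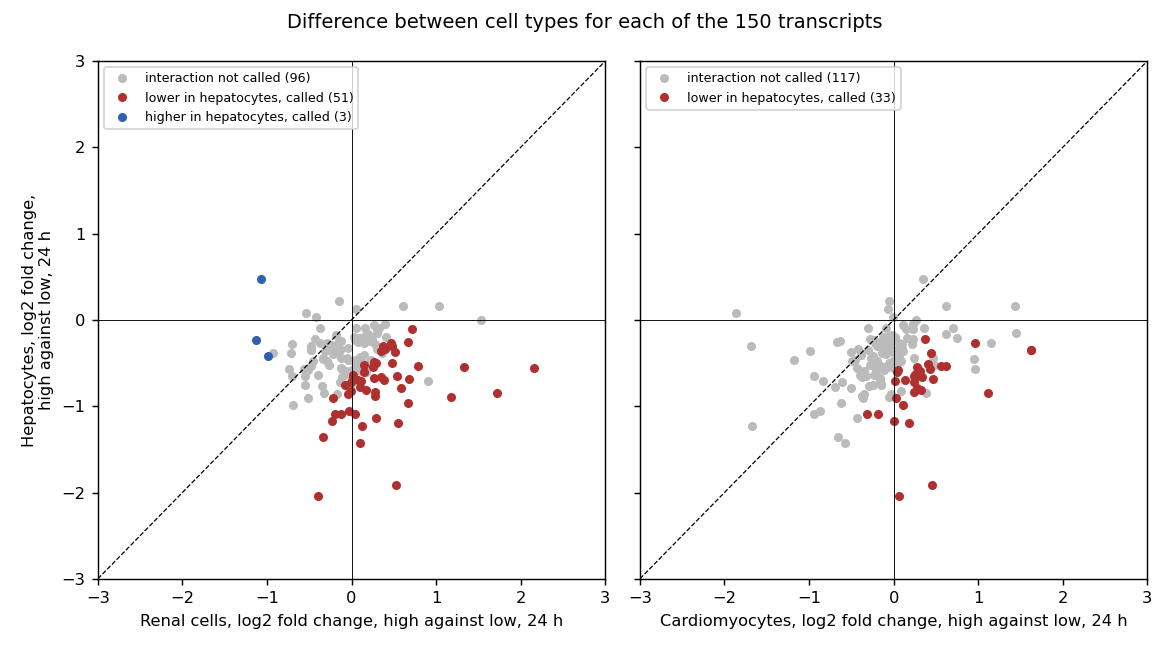
Log2 fold change of each of the 150 transcripts, high against low dose at 24 h, in hepatocytes (vertical axis) against renal cells (left) and cardiomyocytes (right). The dashed line marks equal change, and colours mark transcripts whose difference between cell types passed the test: 51 lower and 3 higher in hepatocytes on the left, 33 lower on the right.

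The largest difference between hepatocytes and renal cells was that of ENSRNOT00000079711, at -2.65 (SE 0.33, adjusted p of 6.29e-06, edgeR's quasi-likelihood test, Benjamini-Hochberg adjusted), made up of a rise of 2.16 in renal cells and a change of -0.55 in hepatocytes that did not pass (adjusted p of 0.055 in the same edgeR test). For ENSRNOT00000032316 the difference was -2.33 (SE 0.40) against renal cells and -2.28 (SE 0.32) against cardiomyocytes, and here the change in hepatocytes made up most of it. For ENSRNOT00000024430 it was -1.61 (SE 0.18) and -2.12 (SE 0.19). In the opposite direction, the difference of ENSRNOT00000023664 against renal cells was 0.93 (SE 0.13), with a fall of 1.13 on the log2 scale in renal cells (log2 fold change -1.13) and a change of -0.23 in hepatocytes. Against cardiomyocytes, the pair of members with identical counts differed by -1.99, made up of a change of 1.62 in cardiomyocytes and -0.35 in hepatocytes. Members called different between cell types thus included some whose change lay mainly in hepatocytes and others whose change lay mainly in renal cells or cardiomyocytes.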

How the data were processed

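RNA was measured in 90 libraries (5 per group) of 3 rat cell types, with groups taken from the sample titles. Per the submitters' processing notes, the authors used kallisto 0.42.4 and Rnor_6.0, and deposited estimated counts and TPM for 65166 targets, of which 40071 transcripts were used and 25095 genomic intervals were not. An estimated count divides a read among compatible transcripts, so isoforms of a gene can trade counts. CPM was computed by scaling the deposited estimated counts to a total of 1000000 on transcripts in each library, and TPM was used as deposited for levels per length.

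The members, lists and tests were chosen with earlier results of these data known. Estimated counts were rounded and fitted per pair of groups with edgeR 4.0.16 under R 4.3.3, using filterByExpr, TMM scaling, glmQLFit and glmQLFTest, with p-values adjusted over all transcripts tested. No calls are given for comparisons that use the 9 h vehicle or high-dose libraries, since these chose the members, and the low dose at 24 h was not tested against that at 9 h. The interaction fits held the high- and low-dose 24 h libraries of both cell types. The SE is the fold change over the square root of F. On simulated counts for the hepatocyte high against low comparison, the test recovered 127 of 132 transcripts changed 2-fold or more, 148 of 198 in all, and called 10 unchanged ones among 16691 tested. For the interaction with renal cells it recovered 83 of 130 changed 2-fold or more, and called 4 unchanged ones among 19372. Both simulations gave all transcripts the same spread between libraries, estimated from the hepatocyte high- and low-dose libraries at 24 h. The renal low-dose libraries at 24 h spread more, with a median SD over members of 24.6% of the mean, against 7.83% in the hepatocyte ones. The simulated figures therefore do not give the recovery in the measured renal data.

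Transcripts singled out were the 10 with the lowest L, those with the largest changes called in each direction per comparison (5, or 8 for high against low in hepatocytes, with groups that do not overlap in hepatocytes), the 5 most abundant per length in hepatocytes and the 3 on each side of the cut. Identifiers of 4 were printed, because the files do not pair transcripts with genes. Gene lists and cell type markers planned could not be applied (0 of the transcripts matched in a RefSeq table of 47357 genes, assembly GRCr8). A library with under 50% of its counts on transcripts was left out. The median member count was 334 in hepatocytes, 377 in renal cells and 402 in cardiomyocytes. Alternatives were DESeq2 1.42.0, limma 3.58.1 on log2(CPM + 0.5), upper-quartile scaling, no filter beyond 1 count, no fold-change threshold, transcripts with whole counts only (within 0.01), the left-out library kept in, each library left out in turn and, for the rule, a pseudocount of 0.5 and TMM-scaled CPM.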

Additional observations from a re-analysis of the deposited data

Results flagged for a closer look

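Within groups, a library was set apart where its gap to the nearest other, relative to the range, exceeded Dixon's critical value. Of 40 groups of values tested this way 5 had such a library, and chance gives about 1 in 20, or 2 here. The median member level in MS-97 (hepatocytes, low, 9 h) was 11.6 CPM, against 12.5 to 12.7 CPM in the other 4. It was 13.5 CPM in MS-168 (cardiomyocytes, vehicle, 24 h), against 15.4 to 16.1 CPM. It was 9.32 CPM in MS-158 (cardiomyocytes, low, 9 h), against 14.6 to 16.5 CPM, and 8.11 CPM in MS-172 (cardiomyocytes, low, 24 h), against 13.0 to 14.5 CPM. The member with the fourth largest fall in hepatocytes at 24 h had 7.36 CPM in the low-dose library MS-114, against 5.21 to 5.83 CPM in the others.

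Effects of the high against the low dose at 24 h that differed between cell types by an interaction test were found for 51 members lower and 3 higher in hepatocytes than in renal cells, beside 9.05% and 10.6% of all transcripts tested, and for 33 members lower and 0 higher than in cardiomyocytes, beside 7.09% and 7.3%. The 5 largest differences against renal cells were -2.65, -2.50, -2.33, -2.07 and -1.83 on the log2 scale, and the 3 in the other direction were 1.59, 0.93 and 0.59. The 5 largest against cardiomyocytes were -2.28, -2.12, -1.99 and -1.99 (the pair with identical counts) and -1.97. Each cell type had its own pair of doses, so cell type and dose cannot be told apart in these differences.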

How the results depend on the processing

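Shares of members called were recomputed under 110 alternatives that left out no library and 226 that left out a library, and the counts behind 77 and 221 of them stayed within 1.5 times of the reported one. Shares in the rest of this paragraph are of the members tested, for lower and then higher, with those of all transcripts tested in brackets. Without a fold-change threshold, hepatocytes gave 70% and 0.667% (21% and 19.5%) for high against low, 36.7% and 26% (24% and 24.5%) for high against vehicle and 17.3% and 57.3% (31.7% and 32.2%) for low against vehicle. Renal cells gave 21.3% and 22.7% (26.5% and 26.7%) for high against vehicle and 14% and 13.3% (15.8% and 13.7%) for high against low, cardiomyocytes 18.7% and 15.3% (15.4% and 15.3%) for high against vehicle, and the interactions 4% (13.9%) higher than in renal cells and 0.667% (9.77%) higher than in cardiomyocytes. These rise because the threshold is dropped. With transcripts of whole counts only, where 55 to 59 members were tested, hepatocytes gave 26.8% (9.11%) lower for high against low, 21.1% and 15.8% (12.4% and 17.1%) for high against vehicle and 6.78% and 30.5% (17.2% and 21.6%) for low against vehicle. Renal cells gave 5.36% and 7.14% (16.8% and 14.3%) for high against vehicle and 5.26% and 7.02% (13.8% and 11.4%) for high against low, and cardiomyocytes 5.36% and 0% (8.45% and 7.17%) for high against vehicle and 9.09% and 0% (6.06% and 3.98%) for high against low. With MS-183 kept in, high against vehicle gave 6% and 6% (3.72% and 6.65%) and low against vehicle 1.33% and 22% (7.89% and 11.6%) in hepatocytes. DESeq2 gave 4% (3.81%) higher in cardiomyocytes, high against low, and 0.667% (9.76%) higher in the interaction with cardiomyocytes, and the cause was not tested.

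Leaving out each library in turn gave, for lower and then higher, 32.7% to 38% and 0% to 0% for hepatocytes high against low, 18% to 20.7% and 13.3% to 16.7% for high against vehicle, and 4.67% to 7.33% and 33.3% to 35.3% for low against vehicle. In renal cells it gave 6% to 8.67% and 6.67% to 8% for high against vehicle, and 5.33% to 6% and 4.67% to 8% for high against low. In cardiomyocytes it gave 4% to 6% and 3.33% to 4.67% for high against vehicle, and 2.67% to 6.67% and 1.33% to 4% for high against low, with 2.67% lower without MS-180, 3.33% without MS-176 or MS-171, and 4% higher without MS-172. The interactions gave 30.7% to 34.7% and 1.33% to 2% with renal cells, and 18.7% to 30% and 0% to 0.667% with cardiomyocytes, the 0.667% without MS-173. These ranges are of members only, and the shares of all transcripts tested, which also move with the library left out, are not given beside them. They describe how far the member counts depend on single libraries. The rule chose 89.3% to 94.7% of the members again without a library, 89.3% with a pseudocount of 0.5 and 88.7% with TMM-scaled CPM. Of 55 changes of single transcripts, the call was kept in 936 of 972 recomputed values and lost in 36, and the direction turned in 0. The smallest interaction with renal cells, 0.59, lost its call in 10 of 25, where it fell just under the fold-change threshold (range 0.561 to 0.634) with an adjusted p of at most 0.000323. No paired analysis was possible because no replicate number occurs in more than 1 group. For low dose against vehicle at 24 h in renal cells and cardiomyocytes, alternatives added after seeing the data (DESeq2, limma and each library left out) gave 0% in both directions. Of 12 other values added after seeing the data, which describe the hepatocyte vehicle group at 24 h with MS-183 kept in, the direction turned in 1, the median ratio of 24 h to 9 h over the other broadly expressed transcripts (-0.060). The median was 334 to 402 estimated counts per member and library, and how far counts limit single calls was not tested.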
